A study of Mus musculus with 28 samples.

Results

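Oxidative phosphorylation makes most of the ATP of many animal cells. Complexes I to IV of the inner mitochondrial membrane pass electrons from NADH and succinate to oxygen, cytochrome c carries electrons from complex III to complex IV, and ATP synthase uses the resulting proton gradient. Most subunits are encoded in the nucleus, and male germ cells carry their own versions of several of them, such as the testis cytochrome c Cyct and the complex IV subunits Cox6b2 and Cox8c, beside the versions found in other tissues (Cycs, Cox6b1 and Cox8a). Meiotic male germ cells also silence the X chromosome.

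The members were all protein-coding mouse genes of the GENCODE M21 annotation whose symbols begin with Nduf, Uqcr, Sdha to Sdhd, Cox4 to Cox8 or Atp5, with Cycs and Cyct added. The rule used names and no measured value, and it found 100 of 21355 genes (99 symbols, since Atp5o has 2 gene identifiers). By role they were 7 core, 29 accessory and 8 assembly genes of complex I, 4 subunit and 4 assembly genes of complex II, 8 genes of complex III, 20 of complex IV, 2 cytochromes c and 18 genes of ATP synthase.

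RNA was sequenced in 28 libraries from 13 C57BL/6-labelled mice that were wildtype or constitutive knockouts of Csmd1, a large complement regulatory gene. In the knockout allele a lacZ and neomycin cassette replaces the first exon in all cells, and the study's methods give the original colony a mixed 129SvEvBrd and C57BL/6 background. Hoechst-sorted cells of gate R5, labelled spermatogonia, came from wildtype mice 178 and 648 and knockout mice 286 and 544. Gate R7, labelled primary spermatocytes, came from wildtype mice 178 and 648 and knockout mice 544, 550, 613 and 614, and gate R6, labelled secondary spermatocytes, from wildtype mice 178 and 648 and knockout mice 286, 544 and 550. Gate R4, labelled spermatids, came from wildtype mice 178, 351 and 648 and knockout mice 286 and 544. Whole testes came from wildtype mice 178 and 648 and from 5 knockouts (214, 269, 273, 286 and 308), and 1 whole ovary from wildtype mouse 86. The study's methods describe the sorted males as sexually mature, the study also describes sexually immature whole testes, and the labels give no age for any library.

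Values are RPKM, reads scaled to transcript length and to the number of mapped reads, and the step of 1 read gave an estimated 23800000 to 61650000 mapped reads in 27 libraries. The R7 library of mouse 613 had no such step (14.1% of low values on whole reads, against at least 93.2% elsewhere), so its depth is unknown. Libraries also fell into sets by the transcripts that lacked a value. These were 1411 in the ovary and mice 544 and 550, 2828 in mice 648 and 614, 12787 in mouse 613 and 865 in the rest. The part of these sets in the stage and organ differences was not tested. By its members, mouse 648 stood apart in every gate: 52 of 99 members lay over 2-fold from the median of the other libraries in its R7, 45 in its R5, 38 in its R6 and 26 in its R4, the most of any library of each gate. The counts were 44 for the R5 library of mouse 544 and 42 for the R7 library of mouse 613. Over all genes those 2 libraries lay farther out than mouse 648, with 58.2% of genes over 2-fold away for mouse 544 in R5 (mouse 648 40.1%) and 44.7% for mouse 613 in R7 (mouse 648 32.2%). The R5 library of mouse 544 held late spermatid markers at a summed 12739 RPKM, against 3.09 to 534.5 in the other 3 R5 libraries. Spermatogonial markers (6 genes) were summed at 704 to 916 RPKM in the R5 libraries of mice 178, 648 and 286 and 303 RPKM in that of mouse 544, against 17.3 to 285 in R7 and 10.9 to 19.6 in R4. Round spermatid markers were summed at 397 to 931 RPKM in R4, 100.6 to 197 in R7 and 13.8 to 51.5 in R5, except for 931 RPKM in R5 of mouse 544, whose library thus went against its label in part. In R4, late spermatid markers were summed at 162 RPKM in mouse 648 and 223 in mouse 286, against 8090 to 9205 in mice 178, 351 and 544, and in whole testes at 6.39 to 41.9 RPKM in mice 308, 269, 286 and 648, with up to 12823 in the other 3. The part of these splits in the R4 and testis values was not tested. Primary spermatocyte markers overlapped between R7 (440 to 2421) and R5 (389 to 1946) and did not set those gates apart. R5 also held Sertoli markers (summed 63.1 to 125 RPKM, against 4.0 to 27.4 in R7, with Rhox5 at 0 in all libraries). Peritubular and stromal markers were at 29.1 to 778 RPKM in R5, against 3.17 to 43.2 in R7. Mouse 648 was the highest R5 library for both lists. Its R5 library also held Leydig markers at 328 RPKM, against 10.7 to 24.2 in the other R5 libraries, and macrophage markers at 52.9, against 8.15 to 14.1. The part of these cell types in the R5 levels given here was not tested, and fewer cells of a type cannot be told apart from less RNA per cell in such samples. The full-length Csmd1 transcript was at 0.008 to 0.517 RPKM in 11 wildtype testicular libraries and 0 to 2.0 RPKM in 16 knockout ones. It did not separate the genotypes, and most of it lies outside the deleted first exon.

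The bases upstream of 4 of the isoform genes are shown because these pairs carry the main contrast, and each run ends before the outermost annotated start. They are RefSeq promoter sequence of build GRCm38.p6, all on the minus strand, and capitals mark the cAMP response element TGACGTCA and GCANGCGC, a core of the NRF1 motif. The positions are chr7:30626152-30626364 for Cox6b1, chr7:4753095-4753344 for Cox6b2, chr6:50566570-50566819 for Cycs and chr2:76360454-76360703 for Cyct.
Cox6b1: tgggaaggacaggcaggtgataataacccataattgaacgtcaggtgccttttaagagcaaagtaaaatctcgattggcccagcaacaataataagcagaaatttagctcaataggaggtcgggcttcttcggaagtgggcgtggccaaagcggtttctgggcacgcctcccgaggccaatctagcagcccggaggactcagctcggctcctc
Cox6b2: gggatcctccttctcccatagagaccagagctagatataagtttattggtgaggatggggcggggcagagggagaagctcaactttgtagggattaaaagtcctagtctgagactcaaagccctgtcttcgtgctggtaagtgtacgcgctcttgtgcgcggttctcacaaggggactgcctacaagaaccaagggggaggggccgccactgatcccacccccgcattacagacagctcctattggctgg
Cycs: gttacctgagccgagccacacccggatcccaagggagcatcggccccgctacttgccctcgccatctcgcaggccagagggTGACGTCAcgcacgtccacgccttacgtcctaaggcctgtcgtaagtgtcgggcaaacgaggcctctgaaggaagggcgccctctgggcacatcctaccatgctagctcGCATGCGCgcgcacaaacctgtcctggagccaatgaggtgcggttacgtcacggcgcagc
Cyct: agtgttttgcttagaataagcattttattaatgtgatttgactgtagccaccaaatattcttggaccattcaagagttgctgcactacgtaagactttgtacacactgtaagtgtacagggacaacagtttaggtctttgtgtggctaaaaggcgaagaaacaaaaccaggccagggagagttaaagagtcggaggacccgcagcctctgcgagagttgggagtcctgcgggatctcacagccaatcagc
Both were found in the Cycs window and neither in the other 3. Of 80 member symbols with a RefSeq promoter (250 bases before to 50 after the start), 5 held TGACGTCA on either strand (6.25%), against 2.03% of 27025 genes. The NRF1 core GCANGCGC was held by 31 of the 80 (38.8%), against 10.8% of all genes, the ETS motif CCGGAAGT by 5 (6.25%, against 4.31%) and the MYB core AACTG by 35 (43.8%, against 48.2%). These matches are descriptions of letters in the windows.

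Cyct, which replaces Cycs in male germ cells, rose from R5 to R7 while Cycs fell. In R5, Cyct was at 31.7 RPKM in mouse 178, 8.34 in mouse 648, 37.0 in mouse 286 and 41.9 in mouse 544. In R7 its lowest, median and highest levels were 90.4, 139 and 261 RPKM, so that every R7 library lay above every R5 library. The difference was 2.58 ± 0.47 on the log2 scale (SE; limma, Benjamini-Hochberg adjusted p = 0.00103), and it was 1.72, 4.42 and 2.84 within mice 178, 648 and 544. Cyct then stood at 39.2 to 89.8 RPKM in R6 and 21.6 to 76.2 RPKM in R4, and R4 minus R5 was 0.97 ± 0.48 (limma adjusted p = 0.106; 0.042 with mouse as a random block).

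Cycs, the cytochrome c of other tissues, was summed over 2 transcripts. It was at 19.5, 8.90, 23.3 and 9.79 RPKM in R5 of mice 178, 648, 286 and 544, and at 0.709 to 4.67 RPKM in R7, with no overlap. R7 minus R5 was -2.37 ± 0.65 (limma adjusted p = 0.0107). Without mouse 648 the adjusted p was 0.0669 and without mouse 178 it was 0.082. R4 minus R5 was -1.66 ± 0.66 (limma adjusted p = 0.0483), a call that 11 alternatives did not keep.

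Cox8c, the testis form of the small complex IV subunit VIII, was at 141 RPKM in R5 of mouse 178, 57.6 in mouse 648, 111 in mouse 286 and 286 in mouse 544. Its R7 levels were 301 at the lowest, 727 at the median and 1100 at the highest, again above all of R5. The difference was 2.19 ± 0.46 (limma adjusted p = 0.00247). Cox8a, its partner in other tissues, went the other way, from 45, 52.2, 25.9 and 19.7 RPKM in R5 of mice 178, 648, 286 and 544 to a median of 6.36 RPKM in R7 (2.43 to 23.8). Only the R7 library of mouse 613 lay above the lowest R5 library. Cox8a fell by 2.28 in R7 (SE 0.47, limma adjusted p = 0.00215) and by 2.85 in R4 (SE 0.48, limma adjusted p = 0.000336), both on the log2 scale against R5.

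Cox6b1, the subunit VIb that helps hold the complex IV dimer together, was at 160, 254, 89.3 and 90.9 RPKM in R5 of mice 178, 648, 286 and 544. In R7 it was at 22.7 to 65.5 RPKM and in R4 at 5.82 to 26.1 RPKM, below all R5 libraries in both gates. It fell by 2.06 in R7 (SE 0.40, limma adjusted p = 0.00146) and by 3.17 in R4 (SE 0.41, limma adjusted p = 9.6e-05). Cox6b2, its testis form, varied more in R5, where its highest transcript was at 94.6, 11.4, 29.7 and 314 RPKM in mice 178, 648, 286 and 544. In R7 that transcript had a lowest, median and highest level of 2.92, 394 and 633 RPKM. The lowest belonged to mouse 613, where the reads of Cox6b2 were placed mainly on a transcript listed in no other library. Only 7 of the 9 listed Cox6b2 transcripts had a value in all libraries and were summed. The sum thus leaves that transcript out and understates mouse 613. Summed Cox6b2 was 1.94 ± 0.85 higher in R7 than in R5 (limma adjusted p = 0.0884), and 2.32 without mouse 613 (limma adjusted p = 0.0267). With mouse as a block the adjusted p was 0.0112 (random) and 0.00325 (fixed).

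**Figure D1:**
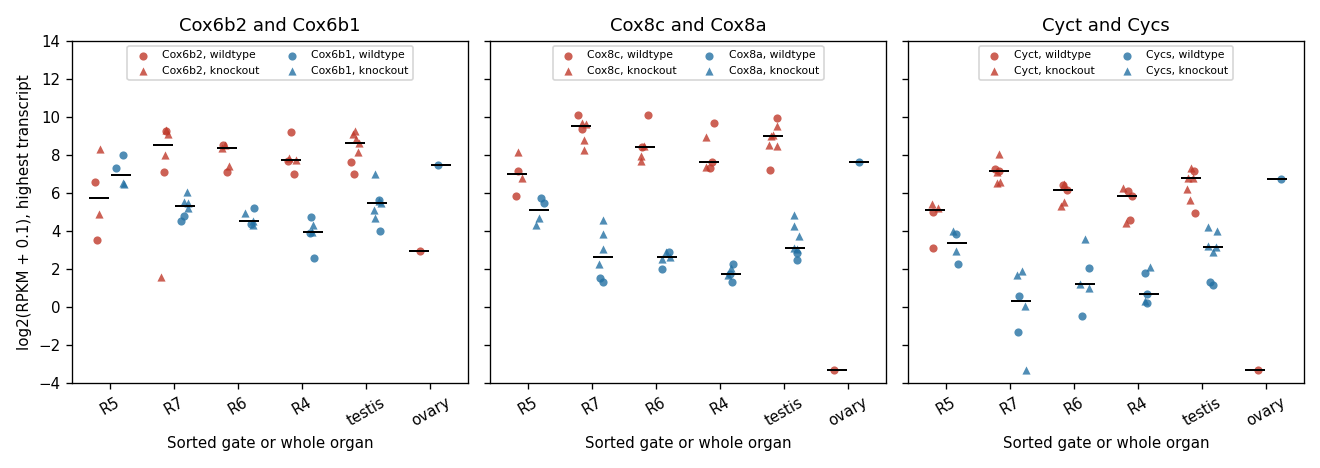
Level of each isoform on the log2(RPKM + 0.1) scale, using the transcript with the highest mean, in every library of the 4 sorted gates, 7 testes and the ovary. Circles are wildtype, triangles knockout and black lines medians; Cox8c and Cyct (red) lie above Cox8a and Cycs (blue) in the germ cell gates and are at 0 RPKM in the ovary.

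Read as a share of each pair, on RPKM of the highest transcripts, Cyct and Cox8c made up more than their partners in every R5 library, and Cox6b2 in 1 of 4. Sums over transcripts gave another order in some R5 libraries. Their log2 ratios in mice 178, 648, 286 and 544 were 0.70, -0.093, 0.668 and 2.09 for Cyct to Cycs. For Cox6b2 to Cox6b1 they were 1.73, -2.02, 0.955 and 4.27. Cyct was 63.9 to 84.9% of the pair in R5, 96.9 to 100% in R7, 76.8 to 99.2% in R6 and 94.0 to 98.2% in R4. The 100% was mouse 613, where the highest Cycs transcript was at 0 but summed Cycs was not (log2 ratio of the sums 5.33). Cox8c was 52.5 to 93.6% in R5, 94.9 to 99.8% in R7, 97.2 to 99.6% in R6 and 97.6 to 99.7% in R4. Cox6b2 was 37.1, 4.30 and 24.9% in R5 of mice 178, 648 and 286 and 77.6% in mouse 544, the library with late spermatid transcripts. In R7 it ran from 5.92% in mouse 613 to 95.7%, with a median of 88.1%, and it was 78.6 to 94.6% in R6 and 83.1 to 97.6% in R4. In the ovary Cox6b2 was 4.22% of its pair, and Cox8c and Cyct were listed at 0.

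The planned test set the later gates (R6 and R4) against the earlier ones (R5 and R7) within mice. It used ratios of RPKM summed over transcripts, unlike the shares above. Mouse 286 had no R7 library and mouse 550 no R5 library, so the mean over mice mixes changes from spermatogonia with changes from primary spermatocytes. The log2 ratio of Cox6b2 to Cox6b1 was higher late than early in 5 of 5 mice, by 2.40 ± 1.93 (SD, n = 5, two-sided exact permutation p = 0.0208, Benjamini-Hochberg adjusted over 3 pairs 0.0625). The late-minus-early difference was 5.01 in mouse 286 and 0.0067, or nearly no change, in mouse 550. Without mouse 286 the mean was 1.75 (exact permutation p = 0.125). For Cox8c to Cox8a the difference was 1.35 ± 2.48 (4 of 5 mice, exact permutation p = 0.302, adjusted 0.453), and for Cyct to Cycs 0.33 ± 1.80 (4 of 5 mice, exact permutation p = 0.775). The exact test rested on 1296 arrangements of the gates within mice. From R5 to R7, as a description, all 3 ratios were higher in 3 of 3 mice, by a mean log2 of 4.63 (Cox6b2), 5.87 (Cox8c) and 5.63 (Cyct).

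**Figure D2:**
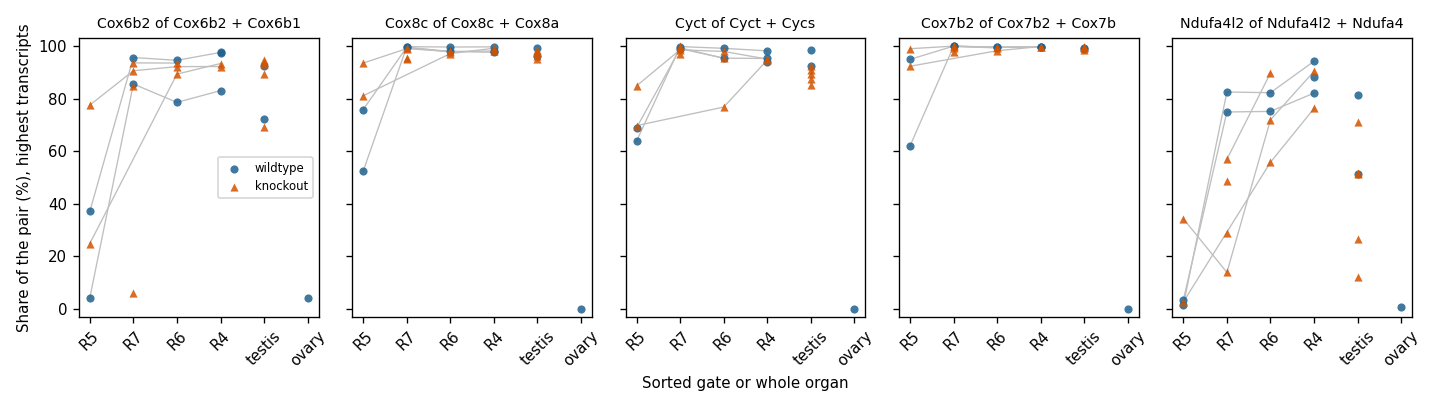
Share of the testis form, or in the last panel of the paralogue Ndufa4l2, in each pair (percent of the summed RPKM of the highest transcripts of both genes) in each library. Grey lines join gates of the same mouse; the ovary is at 0 to 4.22% in all 5 pairs, and the lone R7 triangle near the floor of the first panel is mouse 613.

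Further complex IV members showed the same kind of contrast. Cox7b2, a testis form of subunit VIIb, was at 38.1 to 173 RPKM in R5 and 181 to 630 RPKM in R7, and rose by 1.78 ± 0.51 (limma adjusted p = 0.0133; 0.172 without mouse 648). Its X-linked partner Cox7b was at 22.0, 56.9, 28.2 and 3.70 RPKM in R5 of mice 178, 648, 286 and 544 and at 0.197 to 11.1 RPKM in R7. Cox7b fell by 3.37 (SE 0.83, limma adjusted p = 0.00596), and its adjusted p was 0.0531 to 0.061 when mouse 178, 286 or 648 was left out. Ndufa4, a complex IV subunit first assigned to complex I, was at 34.2 to 102 RPKM in R5, 4.28 to 39.4 in R7 and 1.45 to 7.49 in R4. It fell by 2.43 in R7 (SE 0.53, limma adjusted p = 0.00309; 0.0702 without mouse 648), although in mouse 544 it was 0.46 higher in R7 than in R5, and by 4.29 in R4 (SE 0.55, limma adjusted p = 9.4e-05). Its paralogue Ndufa4l2 was at 2.02, 1.56, 2.13 and 17.9 RPKM in R5 of mice 178, 648, 286 and 544, and at 6.38 to 20.2 RPKM in R7. It rose by 2.76 ± 0.54 in R7 (limma adjusted p = 0.00168) and 3.05 ± 0.56 in R4 (limma adjusted p = 0.000542), but in mouse 544 it was 1.02 lower in R7 than in R5.

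The other tissue isoforms ranged from abundant to nearly absent. Cox4i1, the common subunit IV, was at 125 to 840 RPKM in R5 and 192 to 2512 in R7 (difference 0.74 ± 0.70, limma adjusted p = 0.443; 0.0422 with mouse as a fixed block). Cox7a2 differed by 0.87 ± 0.35 (limma adjusted p = 0.0657; 0.0245 with a random and 0.0364 with a fixed block). Cox6a1 fell in R4 by 1.10 (SE 0.40, limma adjusted p = 0.0317). That call was not kept without mouse 544 (0.0851), 286 (0.181) or 178 (0.0573), in wildtype libraries alone (0.112) or on RPKM as deposited (0.157). The lung form Cox4i2 and the muscle forms were low in germ cells. Cox4i2 reached at most 0.82 RPKM and Cox8b 0.272 RPKM, and Cox8b alone did not pass the filter on low values. Cox6a2 was at 0.026 to 0.53 RPKM in R5 and 0.059 to 1.19 in R4, where it rose by 2.04 ± 0.52 (limma adjusted p = 0.00493; 0.0571 without mouse 286, 0.0714 without mouse 178). Cox7a1 was at 3.09 to 8.39 RPKM in R5, 0 to 1.35 in R4 and 0.653 to 17.9 in whole testes. It fell by 2.28 in R4 (SE 0.82, limma adjusted p = 0.0308), and its adjusted p was 0.0549 to 0.238 when mouse 178, 351, 544 or 648 was left out. Of the 3 genes that encode the same c subunit of ATP synthase, Atp5g3 was at 192, 107, 82.5 and 40.7 RPKM by its highest transcript in R5 of mice 178, 648, 286 and 544, above Atp5g1 (40.2, 22.7, 23.8 and 56.8 RPKM) in all but mouse 544. Atp5g3 fell by 3.07 in R4 (SE 0.42, limma adjusted p = 0.000139). R4 minus R5 was -0.93 ± 0.54 for Atp5g1 (limma adjusted p = 0.167; 0.0274 with a random and 0.00666 with a fixed block) and -2.43 ± 0.99 for Atp5g2 (limma adjusted p = 0.0518; 0.0143 and 0.01).

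Across all tested members, R7 was higher than R5 for 17 and lower for 8 of 99, a share of 17.2% and 8.08%, where 18.0% and 15.6% of 16971 genes were called (33.6% either way). On RPKM as deposited the split was 7 higher and 11 lower, and the median of all genes shifted by -0.35. The members' median was 0.36 (all genes 0.08). With mouse as a fixed block 38 members were called (29 higher), and 36 with a random block. The shares of all genes above belong to the main fit alone, so the blocked counts are not read as a result about the members. Wildtype libraries alone gave 6 higher and 9 lower. Without mouse 648 there were 8, without mouse 286 14, without mouse 178 15, and without the R5 library of mouse 544 31.

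By role, complex II and its assembly genes gave 3 higher and none lower of 8 (Sdhd, an anchor subunit, and the assembly factors Sdhaf1 and Sdhaf4). Complex III gave 2 higher of 8, its core protein Uqcrc1 and the Rieske iron-sulfur protein Uqcrfs1. Complex I gave 1 of 7 core genes higher (Ndufs1), 4 of 29 accessory genes higher (Ndufa6, Ndufa8, Ndufb3 and Ndufs4) and 1 lower (Ndufb11), and 2 of 8 assembly genes higher (Ndufaf3 and Ndufaf7). In complex IV 3 of 19 were higher (Cox8c, Cox7b2 and Ndufa4l2) and 5 lower (Cox6b1, Cox8a, Cox7b, Ndufa4 and Cox4i2). The Cox4i2 call, at the low levels given above, was not kept without mouse 550 (limma adjusted p = 0.0524) or in wildtype libraries alone (0.0972). Nor was it kept on the highest transcript (0.141) or with 1 RPKM added before the log (0.0854). ATP synthase gave 1 higher (Atp5s, a coupling factor) and 1 lower (Atp5mpl) of 18.

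In R4, 8 of 99 members were higher than in R5 and 23 lower (8.08% and 23.2%), against 23.4% and 23.9% of all genes (47.3% either way), so that the lower share was near that of all genes. The median was -0.40, and -0.02 over all genes. ATP synthase had 5 lower (Atp5g3, Atp5a1, Atp5f1, Atp5o and Atp5k) and 1 higher of 18, where Atp5s, at 1.78 to 3.74 RPKM in R5 and 1.95 to 14.9 in R4, rose by 2.13 ± 0.52 (limma adjusted p = 0.00376; 0.0606 without mouse 286). Complex I accessory genes had 6 lower and none higher of 29 (Ndufa1, Ndufa3, Ndufa10, Ndufb9, Ndufb11 and Ndufc2). Complex III had Uqcr11 and Uqcrh lower, while Uqcrfs1 was at 5.30 to 11.6 RPKM in R5 and 9.67 to 29.1 in R4 and rose by 1.58 ± 0.35 (limma adjusted p = 0.00186). Complex IV had 6 lower (Ndufa4, Cox6b1, Cox8a, Cox7b, Cox7a1 and Cox6a1) and 3 higher of 19 (Ndufa4l2, Cox6a2 and Cox5a), and Cycs was lower. In complex I, the core genes Ndufs7 and Ndufs8 were lower and Ndufs1 higher, and of the assembly genes Ndufaf6 was lower and Ndufaf2 higher. Of complex II and its assembly genes, Sdhaf4 was higher. With mouse as a block 54 (random) or 50 (fixed) members were called. Again the shares of all genes belong to the main fit alone, and these counts are not read as a result about the members. Without mouse 286 there were 12, and 20 each without mouse 178 or mouse 648.

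**Figure D3:**
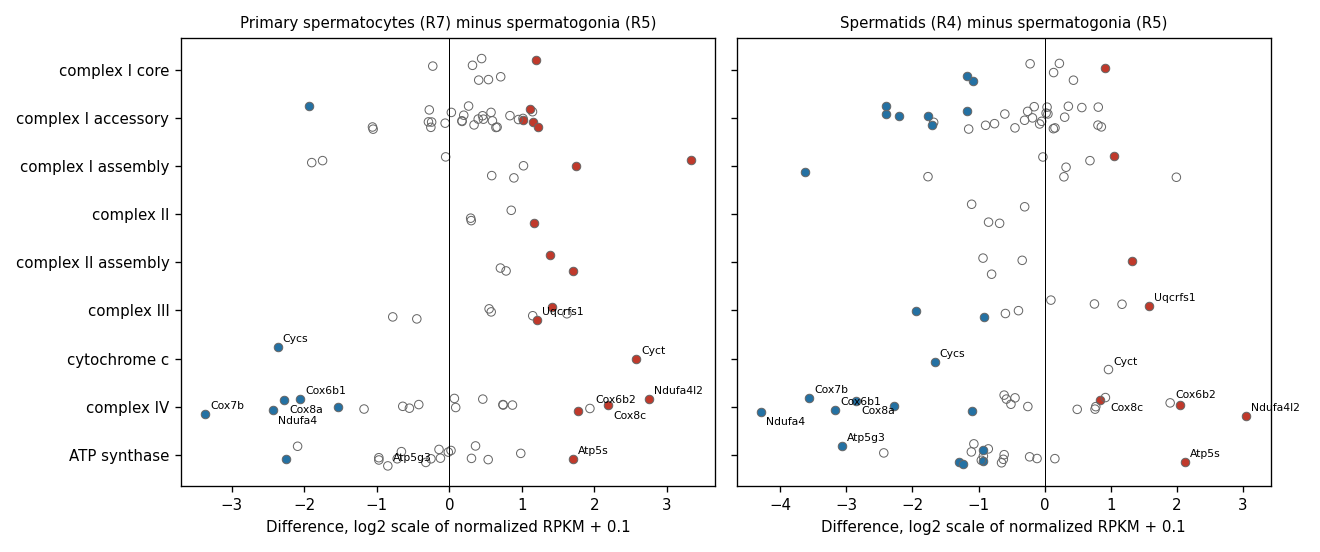
Difference of each of 99 members from spermatogonia (R5), in primary spermatocytes (R7, left) and spermatids (R4, right), on the log2 scale of the normalized values and grouped by role. Filled points passed an adjusted p of 0.05 (red higher, blue lower): 17 and 8 on the left, 8 and 23 on the right.

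Between neighbouring later gates no member passed: limma called 0 of 99 for R6 minus R7 (14 at an unadjusted p under 0.05, 14.1% against 23.1% of all genes), where 3.58% of all genes were called (1.75% higher and 1.83% lower), and 0 of 99 for R4 minus R6 (5 at an unadjusted p under 0.05, 5.05% against 15.7%), where 0.324% were (0.13% higher and 0.194% lower). With mouse as a block, R6 minus R7 had 14 members called (random, 13 of them lower) or 15 (fixed, all lower), and R4 minus R6 had 1 with the random block. The shares of all genes just given belong to the fit without a block, so the blocked counts are not read as a result about the members. By mean level, 53 of 99 members were highest in R7 and 33 in R5, against 29.4% and 34.9% of all genes, and 49 were lowest in R4, against 33% of all genes.

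The 3 X-linked members are the complex I accessory genes Ndufa1 and Ndufb11 and the complex IV gene Cox7b. Ndufb11 was at 4.82, 11.1, 3.9 and 1.83 RPKM in R5 of mice 178, 648, 286 and 544 and at 0.191 to 2.50 RPKM in R7, a fall of 1.93 (SE 0.50, limma adjusted p = 0.00814; 0.0547 without mouse 286, 0.12 without mouse 648). Ndufa1 differed by -1.06 ± 0.68 in R7 (limma adjusted p = 0.248) and fell by 2.40 in R4 (SE 0.70, limma adjusted p = 0.0102; 0.0709 without mouse 286, 0.109 without mouse 178). Of all 712 X-linked genes tested, 370 were lower in R7 (52%) and none higher. Of the 96 autosomal members 17 were higher and 6 lower.

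Of 45 other genes of mitochondrial respiration, 7 were higher and 8 lower in R7 than in R5 (15.6% and 17.8%). These shares were near those of all genes (18.0% and 15.6%). Pdha2, the autosomal testis form of the pyruvate dehydrogenase E1 subunit, rose by 2.97 ± 0.59 (limma adjusted p = 0.0018), and its X-linked partner Pdha1 fell by 2.54 (SE 0.58, limma adjusted p = 0.00396). In R4, 5 of the 45 were higher and 14 lower than in R5 (11.1% and 31.1%, against 23.4% and 23.9% of all genes). Among the lower ones was Cyc1, the cytochrome c1 of complex III, which fell by 3.09 (SE 0.51, limma adjusted p = 0.000301). Pdha1, Pdha2 and Cyc1 were named after their values were seen.

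With 1 ovary there was no test, and a member was counted where the ovary lay at least 2-fold beyond the whole range of the 7 testes. No testis shared the ovary's set of transcripts without a value (1411, against 865, or 2828 in mouse 648). Organ and set cannot be told apart here. The ovary was higher for 29 of 99 members and lower for 7, where 35.4% and 11.6% of 17519 genes were higher and lower. Quantile normalization gave 26 and 10 members (22.9% and 18.2% of genes), and the median of all genes was 1.11 higher in the ovary on the deposited log2 scale. The 7 lower ones were Cyct, Cox8c and Cox7b2, all listed at 0 in the ovary and at 30.3 to 156, 148 to 983 and 90.1 to 446 RPKM in the testes, with Cox6b2, Ndufa4l2, the complex III subunit Uqcrq and the assembly factor Ndufaf2. Cox6b2 was at 46.1 RPKM in the ovary and 756 to 3607 in the testes, summed over 7 transcripts that share reads.

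Among the higher ones, Cox7b was at 269 RPKM in the ovary and 1.76 to 15.2 in the testes. Cox8a was at 194 and 5.55 to 28.6 RPKM, Cycs at 135 and 3.43 to 27.4, Atp5g2 at 173 and 2.21 to 8.91, and Cox4i2 at 13.8 and 0.118 to 0.424. Complex I core genes were higher in the ovary for 5 of 7, the accessory ones for 4 of 29 and assembly ones for 1 of 8 (1 lower). Complex II subunits were higher for 3 of 4 and its assembly genes for none of 4, complex III genes for 3 of 8 (1 lower), complex IV genes for 5 of 19 (4 lower) and ATP synthase genes for 7 of 18. Cox6b1 was not counted, at 176 RPKM in the ovary and 15.8 to 128 in the testes.

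**Figure D4:**
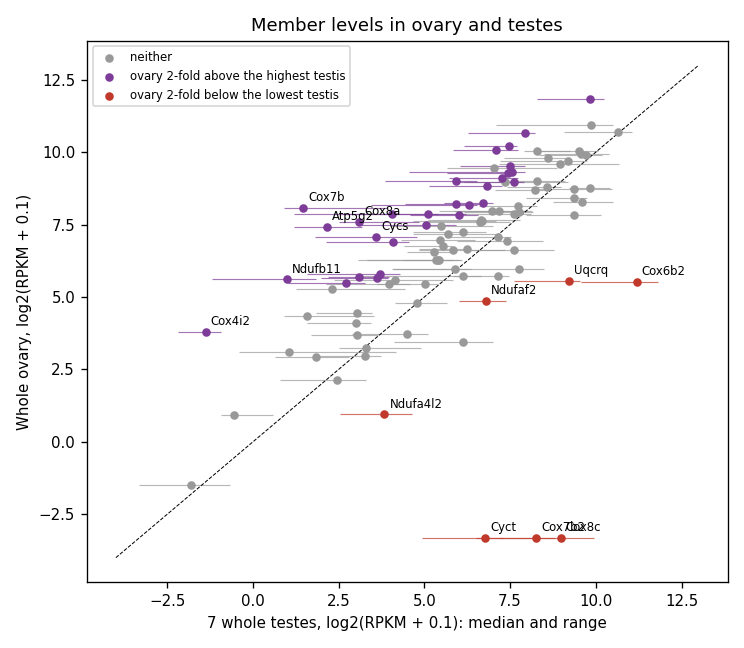
Level of each of 99 members in the ovary against the median of 7 whole testes, both log2(RPKM + 0.1), with horizontal lines for the range of the testes. The 29 purple members lie at least 2-fold above the highest testis and the 7 red ones at least 2-fold below the lowest, with Cyct, Cox8c and Cox7b2 at 0 RPKM in the ovary.

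No member was called between knockout and wildtype: limma called 0 of 99 in R5, R7, R6, R4 and whole testis, where 0, 0, 0, 0.00589 and 0% of all genes were called. At an unadjusted p under 0.05 there were 6, 8, 3, 1 and 19 members (6.06, 8.08, 3.03, 1.01 and 19.2%), against 6.92, 5.98, 2.37, 0.719 and 3.59% of all genes. In whole testis the members' median was 0.58 higher in knockouts (all genes 0.02), and late spermatid markers ran from a summed 6.39 to 12823 RPKM across the 7 testes, with low sums in mice 648, 269, 286 and 308 of both genotypes. Their part was not tested. Without mouse 286 the count in R5 changed, but that fit leaves 1 knockout R5 library, whose spread is taken from the other groups. No member was called by limma for a stage difference that differed between genotypes (0 of 99 for R7 minus R5 and for R4 minus R5, with 0% of genes called). At an unadjusted p under 0.05 there were 7 and 1 members (7.07 and 1.01%), against 9.13 and 2.76% of all genes.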

How the data were processed

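Libraries were grouped by the labels' genotype, tissue and gate, and the mouse was the replicate. The authors mapped paired-end reads to the Ensembl R72 mouse reference with TopHat2 and deposited RPKM values per transcript. Of 94480 transcripts, 90339 (95.6%) matched GENCODE M21, and those with a value in all 28 libraries were summed per gene, 324 of 326 for the members. In the 27 libraries with whole-read steps a read counts once for each transcript it overlaps, so sums overstate genes with many transcripts. Levels between genes were therefore compared with the transcript of highest mean. The R7 library of mouse 613 had no such steps, so its sums may be on another scale. It was kept in the main fit.

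Sorted libraries were fitted together with limma 3.58.1 (R 4.3.3, trend) on quantile-normalized log2(RPKM + 0.1), for 16971 genes with a mean of at least 0.1 RPKM, and whole testes separately (16898 genes). Fold changes on this scale understate low genes, and p-values were Benjamini-Hochberg adjusted over all genes with a threshold of 0.05. Simulated data for R7 minus R5 had 16971 genes and a set SD of 0.5. Of 200 genes changed by 2 on the log2 scale, 100% were recovered, with 24 false calls. Recovery at the spread of the real libraries was not tested. Same-numbered samples come from the same mouse (residual correlation: median 0.485 in 22 pairs, against -0.04 between mice), so blocked fits stand beside results they change. Isoform ratios were tested by exact permutation within mice (1296 arrangements).

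Named genes were the isoforms of complex IV, cytochrome c and the c subunit, the X-linked members, and per stage contrast the 3 called members with the smallest adjusted p each way. All called members are also listed by role. The members and lists were chosen with earlier results of these data known. Promoters were taken from RefSeq (GRCm38.p6).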

Additional observations from a re-analysis of the deposited data

Results flagged for a closer look

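In groups of 4 to 10 samples, 24 named genes in 2 knockout groups (48 gene and group pairs) were examined for a sample far from the others, and 4 were found. A rate of about 1 in 20 by chance would need independent pairs, and Cox6b1 and Cox7b2 were both flagged in mouse 308. No excess over chance can be read from this count. All 4 were in the 5 knockout whole testes. Cox6b1 was at 127.7 RPKM in mouse 308, against 25.7 to 46.8 RPKM in the other 4. Cox7b2 was at 446 RPKM in mouse 308, against 274 to 312 RPKM. Uqcrfs1 was at 24 RPKM in mouse 214, against 14.6 to 17.1 RPKM. Cox8b was at 0.136 RPKM in mouse 286 and at 0 in the other 4, so that any value above 0 would have been flagged. Mouse 308 had the lowest summed late spermatid markers of the 7 testes (6.39 RPKM) and the highest Sertoli (390 RPKM, others 57.6 to 175), peritubular and stromal (105 RPKM, others 9.29 to 39.9) and spermatogonial markers (421 RPKM, others 58.2 to 155). Testes 269 and 286 also had low late spermatid sums (25.8 and 38.4 RPKM), with Cox6b1 at 46.8 and 44.3 RPKM. The part of these in its Cox6b1 and Cox7b2 levels was not tested.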

How the results depend on the processing

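Of the alternatives to the counts and isoform ratios, 174 kept their direction and side of the threshold, or stayed within 1.5 times a count. The exceptions follow, and their cause was not tested unless fewer samples enter. With mouse as a replicate block, members called were 36 (random) and 38 (fixed) for R7 minus R5, 54 and 50 for R4 minus R5, 14 and 15 for R6 minus R7, and 1 (random) for R4 minus R6. No call between genotypes changed. The shares of all genes were given for the main fit, so these counts have none beside them. Wildtype libraries alone gave 15 for R7 minus R5 (6 higher, 9 lower). Without the R5 library of mouse 544, R6 minus R7 had 1 and the late-minus-early log2 ratio of Cyct to Cycs was -0.041 (main value 0.33). Leaving out each mouse in turn gave 8 to 28 members for R7 minus R5, 12 to 39 for R4 minus R5, 0 to 2 for R6 minus R7, 0 to 4 for knockout against wildtype in R5 and 36 to 41 for ovary against testes. It gave log2 ratios of 1.75 to 3.0 (Cox6b2 to Cox6b1, past an exact permutation p of 0.05 no longer without mouse 178, 286 or 544), 0.72 to 2.18 (Cox8c to Cox8a) and -0.04 to 1.09 (Cyct to Cycs). Among single members, Cox4i1 in R7 minus R5 was -0.28 on the highest transcript (limma adjusted p = 0.918) and Cox4i2 in R4 minus R5 was -0.031 on RPKM as deposited (adjusted p = 0.967). Of the others, 739 stayed the same, 51 lost and 32 gained a call. What size of genotype difference these libraries could show was not tested.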
